A study of Mus musculus with 8 samples.

Results

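The respiratory chain genes of sorted thymocytes were taken as every gene of the expression matrix whose symbol begins with Ndufa, Ndufb, Ndufc, Ndufs, Ndufv, Sdha, Sdhb, Sdhc, Sdhd, Uqcr, Cox4, Cox5, Cox6, Cox7, Cox8, Atp5 or mt-, together with Cycs, leaving out symbols with -ps and the Ndufaf assembly factors. This gave 98 of 15653 genes, of which 85 are encoded in the nucleus and 13 in the mitochondrial genome. The nuclear genes comprised 36 of complex I, 4 of complex II, 8 of complex III, 16 of complex IV, 16 of complex V and Cycs, plus 4 assembly factors of complex II (Sdhaf1, Sdhaf2, Sdhaf3 and Sdhaf4) that the prefix Sdha takes in. Of the 85 nuclear genes, 80 reached 20 CPM, UMI counts scaled to a common library total, in at least 1 library. The other 5 (Cox4i2, Cox6a2, Cox7a1, Sdhaf3 and Atp5s) stayed below that level in all 4 libraries and enter no count of ratios. All 13 mitochondrially encoded genes passed.

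Complexes I and II pass electrons from NADH and succinate to ubiquinone, complex III passes them to cytochrome c, and complex IV to oxygen. Complex V uses the resulting proton gradient to make ATP. Complex II is built from nuclear genes alone, whereas the other complexes join nuclear subunits with a small set made inside the mitochondrion. In the thymus, DN3 cells that have rearranged a T cell receptor beta chain pass beta selection, divide rapidly and become DN4 cells.

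The thymocytes came from knock-in mice with the genotype GSK3B Ser389Ala (KI), in which a serine of the kinase GSK3B is replaced by alanine, and from C57BL/6J mice (WT). After magnetic depletion of other cells, DN4 cells (CD4-, CD8-, CD44-, CD25-) and DN3 cells (CD4-, CD8-, CD44-, CD25+) were sorted and profiled by 5′ single-cell RNA sequencing. There was 1 library per group, with 2577 cells in KI DN4, 1477 in WT DN4, 3298 in KI DN3 and 2885 in WT DN3. The number, age and sex of the mice, and the strain background of the knock-in, are not given in the sources used here. Summed unique molecular identifiers (UMIs) came to 30402236 in KI DN4, 16411164 in WT DN4, 25525613 in KI DN3 and 22652454 in WT DN3, and the median per cell was 9345, 7121, 5495 and 5927 in the same libraries. Il2ra, which encodes CD25 and so follows the gate, was at 3.75 CPM in KI DN4 and 3.84 in WT DN4, against 425 in KI DN3 and 478 in WT DN3. UMI counts do not show the changed codon, so the genotype labels were not checked. Of 10182 distinct cell barcodes, 54 occurred in more than 1 library. Of markers of other cells, the summed level of 4 myeloid and dendritic genes lay between 2.99 and 16.8 CPM in the 4 libraries, and Hba-a2, the erythroid marker measured, was at no more than 0.0987. The 8 NK, innate lymphoid and NKT genes summed to 163 CPM in KI DN4, 253 in WT DN4, 103 in KI DN3 and 137 in WT DN3, the 7 gamma delta T genes to 385, 530, 492 and 608, and the 6 mature alpha beta T genes to 365, 458, 283 and 315 in the same libraries. The 3 B cell genes measured summed to 351, 380, 235 and 255 CPM, nearly all of it from Ighm and Cd79b, with Cd79a at no more than 0.265. The 3 stromal genes measured summed to 55.0, 56.7, 218 and 182 CPM, nearly all of it from Epcam and Pecam1, with Col1a1 at no more than 0.244. Their part in the results was not tested.

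UMIs were summed over the cells of a library or cluster and divided by the total. Levels are set against each other between libraries or clusters, and between genes only for the mitochondrially encoded UMIs per nuclear UMI and for genes on a shared messenger. With 1 library per group, no test was made. "Higher" and "lower" below mean that the 95% interval of the ratio, which covers counting error only and not the spread between mice, lies above or below 1. Ratios of 2-fold or more are counted apart from smaller ones. A gene with more UMIs has a narrower interval, so counts of higher and lower genes depend on level. The shares over all genes set beside them are not matched for level.

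The authors' 10 clusters are called by number. Clusters 3 and 4 held cells of all 4 libraries and nearly all their cells were called S or G2M by the authors, with 3.78% and 0% called G1. Clusters 0 and 1 held DN3 cells, 96.5% of them G1 in either cluster, and separated by genotype: 2415 of the 2535 cells of cluster 0 were KI DN3, and 2146 of the 2209 cells of cluster 1 were WT DN3. They are therefore combined. Clusters 2, 5 and 7 were mainly DN4, and cluster 6 mainly DN3. Since the clusters were made from these cells and genes, levels across them are a description.

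Nuclear respiratory chain genes took their largest share of UMIs in the dividing clusters 3 and 4, where mitochondrially encoded genes did not. The nuclear share was 4.01% in cluster 3 and 3.86% in cluster 4, against 2.51% in cluster 0 and 2.47% in cluster 1. The mitochondrially encoded share was 1.80% in cluster 3 and 1.81% in cluster 4, against 3.05% in cluster 0 and 2.77% in cluster 1. The DN4 clusters 2 and 5 combined a low nuclear share, 2.59% and 2.53%, with a mitochondrially encoded share of 1.78% and 2.21%. Cluster 8, of 88 cells with a median of 1664.5 UMIs, stood apart with a nuclear share of 0.993% and a mitochondrially encoded share of 5.77%. Its highest mitochondrially encoded share in a single cell, 7.48%, was also the highest of any cell in the data. Whether cells were removed by this share before deposit is not stated. Depth moved with these shares: the median per cell was 18128 UMIs in cluster 3 and 22619.5 in cluster 4, against 4813 in cluster 0 and 5505 in cluster 1. The 6 cycling markers summed to 784.5 CPM in cluster 3 and 2532 in cluster 4, against 39.2 in cluster 0 and 41.1 in cluster 1. Cycling markers and nuclear share did not follow one order: cluster 7 had the highest cycling sum, 2968 CPM, with a nuclear share of 3.27%. Cluster 9 had 1090 CPM with 3.33%, but its sum rests mostly on Ccnb2 at 669 CPM. There Birc5 was at 170, Mki67 at 120, Ube2c at 94.5, Top2a at 20.8 and Cdk1 at 16.0. Top2a was at 26.6 CPM in cluster 0 and 31.6 in cluster 1. The part of depth and of the cell cycle in the shares was not tested.

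**Figure D1:**
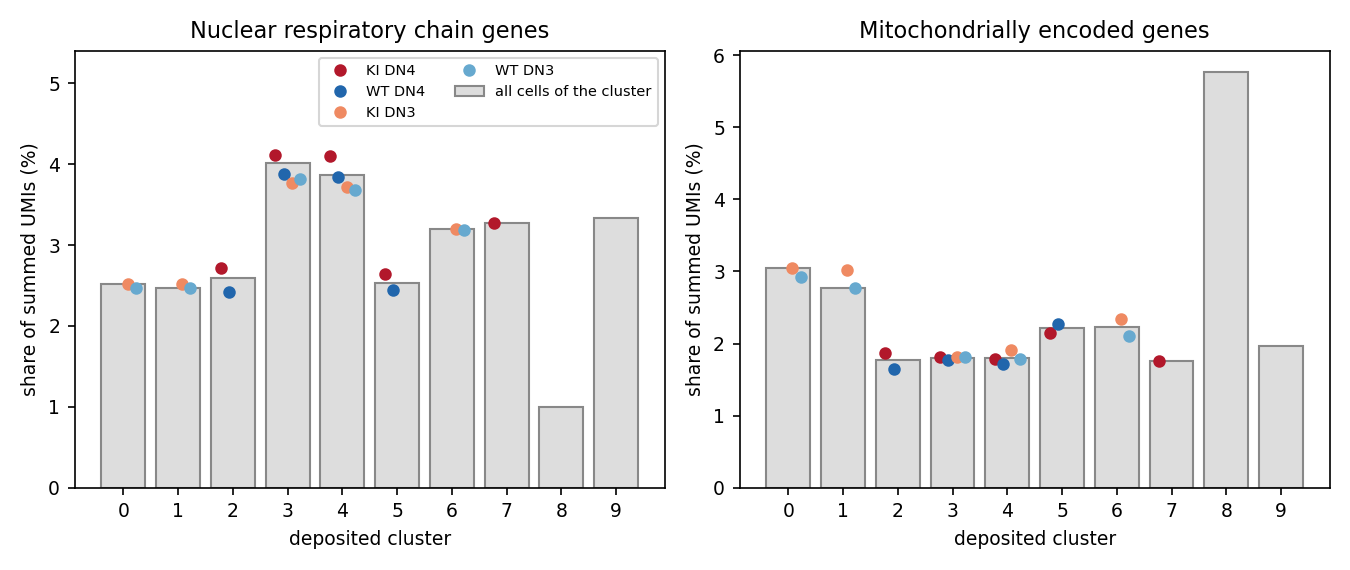
Share of summed UMIs (%) from the 85 nuclear (left) and 13 mitochondrially encoded (right) genes in each deposited cluster; bars are all cells of a cluster, points are the cells of 1 library where it had at least 50. The nuclear share peaks at 4.01% in cluster 3 and the mitochondrially encoded share at 5.77% in cluster 8. In cluster 3 the nuclear shares of the 4 libraries span 3.77% to 4.12%.

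Set gene by gene, 72 of the 80 nuclear genes were higher in clusters 3 and 4 than in clusters 0 and 1 and 6 were lower, where 37.2% of the 6237 genes measured were higher and 55.4% lower. Their median log2 ratio was 0.63, against -0.23 over all genes. At least 2-fold apart were 17 nuclear genes upwards and 1 downwards, beside 32.7% of all genes in either direction. All 15 measured genes of complex V and all 4 of complex II were higher, as were 33 of 36 of complex I, 7 of 8 of complex III and 11 of 13 of complex IV. Of the 13 mitochondrially encoded genes 11 were lower and 2 higher, with a median of -0.41.

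Several of the 2-fold genes belong to complex IV, cytochrome c oxidase. Cox5a, a core nuclear subunit of it, stood at 978 CPM in clusters 3 and 4 and 352 in clusters 0 and 1. Ndufa4, once assigned to complex I and now placed in complex IV, was at 818 CPM in clusters 3 and 4 and 292 in clusters 0 and 1, and Cox6a1 at 735 CPM in clusters 3 and 4 and 302 in clusters 0 and 1. In complex V, Atp5g3, which encodes the membrane ring subunit c, was at 1821 CPM in clusters 3 and 4 and 743.5 in clusters 0 and 1. Its paralogs, whose mature proteins are the same, were less far apart: Atp5g1 was at 828 CPM in clusters 3 and 4 and 408 in clusters 0 and 1, and Atp5g2 at 1331 in clusters 3 and 4 and 874 in clusters 0 and 1. Among the catalytic and electron-passing subunits of complex II, Sdhb, the iron-sulfur subunit, was at 460 CPM in clusters 3 and 4 and 214 in clusters 0 and 1, and Sdha, the flavoprotein, at 155 in clusters 3 and 4 and 136 in clusters 0 and 1. Of the membrane anchors, Sdhc was at 114 CPM in clusters 3 and 4 and 78.8 in clusters 0 and 1, and Sdhd at 218 in clusters 3 and 4 and 136 in clusters 0 and 1. The complex II genes thus had log2 ratios from 0.19 for Sdha to 1.11 for Sdhb.

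A few nuclear genes ran the other way. Cox6b2, known in mammals as the testis isoform of complex IV subunit 6B, was at 23.9 CPM in clusters 3 and 4 and 85.2 in clusters 0 and 1, while its widespread paralog Cox6b1 was at 672 in clusters 3 and 4 and 495 in clusters 0 and 1. Cox6b2 was low in every cluster of DN4 cells: it stood at 16.4 CPM in cluster 2, 9.78 in cluster 5 and 24.3 in cluster 7, and reached 117 in cluster 9, which has 72 cells. Cox7a2l, which helps join complexes III and IV into supercomplexes, was at 246 CPM in clusters 3 and 4 against 430 in clusters 0 and 1, whereas Cox7a2 was at 681 in clusters 3 and 4 and 310 in clusters 0 and 1. Cox7a2l was highest in the DN4 clusters 2 and 5, at 584 and 544 CPM. Uqcrh, the hinge subunit of complex III, named after its values were seen, was at 664 CPM in clusters 3 and 4 and 896 in clusters 0 and 1. Sdhaf2, which attaches the flavin to Sdha, was at 38.1 CPM in clusters 3 and 4 and 49.3 in clusters 0 and 1. Among nuclear genes at 20 CPM or more in every cluster, Sdhaf2, Sdha and Uqcrfs1 were among those with the smallest spread across clusters.

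**Figure D2:**
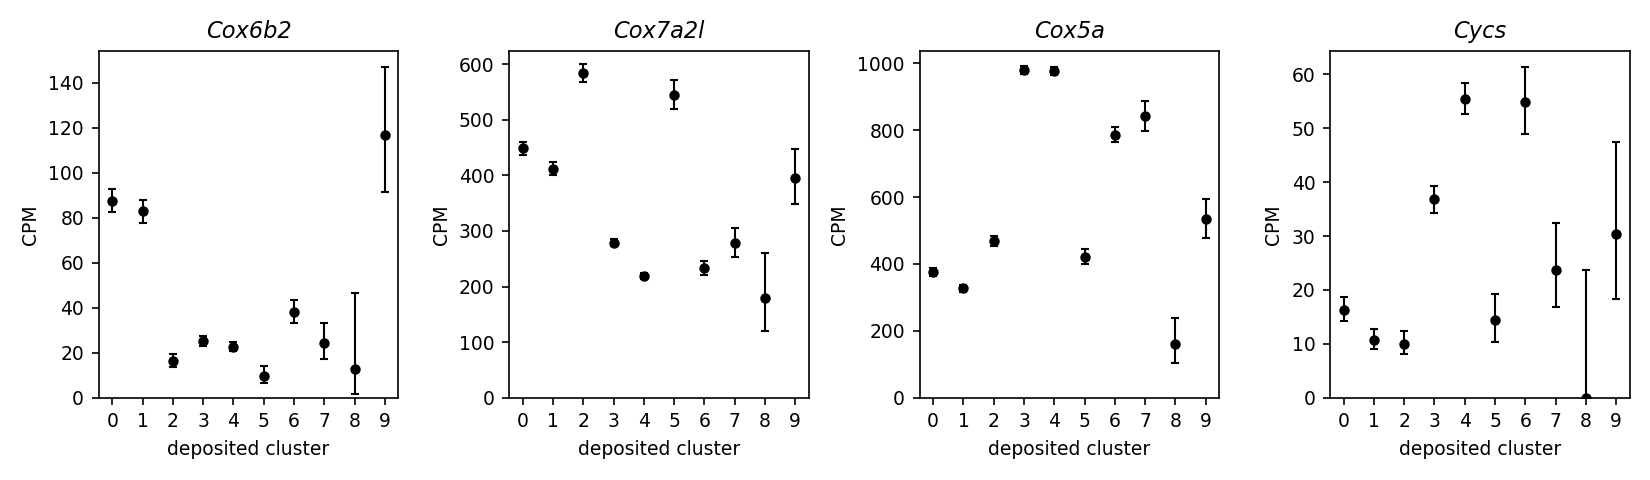
Level (CPM) of Cox6b2, Cox7a2l, Cox5a and Cycs in each deposited cluster, cells of all libraries summed; bars are 95% Poisson intervals of counting error. Cycs is high in clusters 3, 4 and 6, Cox5a in these and in cluster 7, Cox7a2l in clusters 2 and 5, and Cox6b2 in clusters 0, 1 and 9. Cycs had no UMI in cluster 8, where its interval reaches 23.8 CPM.

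The mitochondrially encoded genes differed among themselves. mt-Co1, the catalytic subunit of complex IV, was at 2311 CPM in clusters 3 and 4 and 5738 in clusters 0 and 1, a log2 ratio of -1.31. mt-Atp6, mt-Nd4 and mt-Co3 had ratios of -0.87, -0.87 and -0.85, and mt-Cytb -0.57. mt-Nd1 and mt-Nd3 were the 2 that were higher, at 0.25 and 0.13. All 13 were highest in cluster 8, and with that cluster left out 8 were highest in cluster 0 and 3 in cluster 1.

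The comparison of DN4 with DN3 sets the sorted populations against each other and is not one of beta selection alone. Cluster 2 held 976 of the KI DN4 and 595 of the WT DN4 cells, and cluster 5 held 328 and 324. The 7 gamma delta T genes summed to 1341 CPM in cluster 2 and 52.2 in cluster 5. They summed to 583 in cluster 0, 695 in cluster 1, 263 in cluster 3 and 272 in cluster 4. Of them Tcrg-C1 was lower in cluster 2, at 233 CPM, than in clusters 0 and 1, at 315 and 385. The 8 NK, innate lymphoid and NKT genes summed to 1269 CPM in cluster 5, mostly from Il2rb, Nkg7, Ccl5 and Xcl1. They summed to 483 in cluster 2, 12.1 in cluster 3 and 23.3 in cluster 4. The 6 mature alpha beta T genes summed to 1272 CPM in cluster 2 and 792 in cluster 5. In clusters 3 and 4 they summed to 120 and 171. Nuclear respiratory chain genes were mostly higher in DN4 and mitochondrially encoded genes lower, in both genotypes. In KI, 62 of the 80 nuclear genes were higher in DN4 and 7 lower, beside 31.5% of all genes higher and 46.5% lower. Their median log2 ratio was 0.19, against -0.07 over all genes. In WT, 64 were higher and 8 lower, beside 33.9% and 38.9% of all genes, with a median of 0.16 against -0.03. The mitochondrially encoded genes had medians of -0.38 in KI, with 2 higher and 10 lower, and -0.40 in WT, with 0 higher and 12 lower. As a share of all UMIs they made up 1.84% of KI DN4 and 2.51% of KI DN3, and 1.79% of WT DN4 and 2.40% of WT DN3. The nuclear genes made up 3.77% of KI DN4 and 3.07% of KI DN3, and 3.36% of WT DN4 and 2.93% of WT DN3. For each nuclear UMI there were 0.487 mitochondrially encoded ones in KI DN4 and 0.820 in KI DN3, and 0.532 in WT DN4 and 0.820 in WT DN3.

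**Figure D3:**
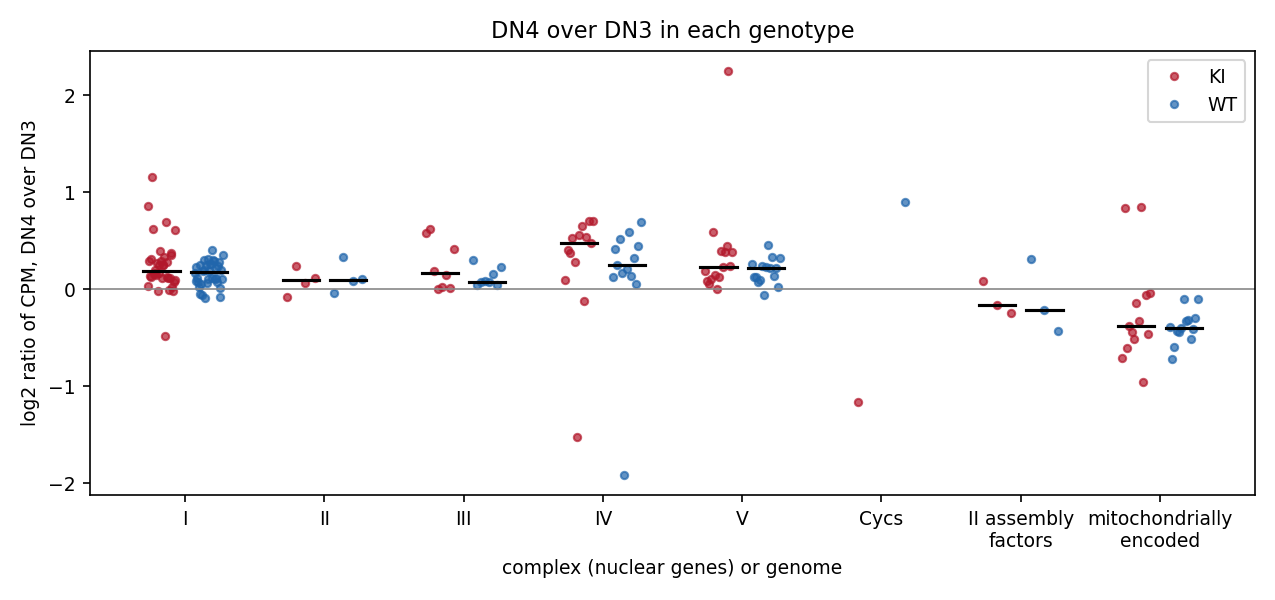
Log2 ratio of CPM, DN4 over DN3, of each measured gene in KI (red, left of each pair) and WT (blue), by complex of the nuclear genes and for the mitochondrially encoded genes; black lines are medians of groups of 3 or more genes. Complex IV has the highest nuclear medians, 0.48 in KI and 0.24 in WT, and the mitochondrially encoded genes lie mostly below 0.

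By complex, the highest medians were those of complex IV, at 0.48 in KI and 0.24 in WT. In KI, complex V had a median of 0.23, complex I 0.18, complex III 0.16 and complex II 0.09. In WT, complex V had 0.21, complex I 0.18, complex III 0.08 and complex II 0.09. Within complex IV, Ndufa4 stood at 827 CPM in KI DN4 and 508 in KI DN3, and at 676 in WT DN4 and 418 in WT DN3, with log2 ratios of 0.70 in KI and 0.69 in WT. Cox7a2, a small complex IV subunit, was at 676 CPM in KI DN4 and 431 in KI DN3, and at 613 in WT DN4 and 409 in WT DN3. Cox6b2 went the other way, at 21.3 CPM in KI DN4 and 61.2 in KI DN3, and at 16.1 in WT DN4 and 61.1 in WT DN3. Both DN4 levels of Cox6b2 lay below both DN3 levels, with log2 ratios of -1.52 in KI (95% interval -1.66 to -1.39) and -1.92 in WT (-2.11 to -1.73). Among all genes 7.73% were at least 2-fold apart in KI and 8.23% in WT. The nuclear respiratory chain genes past 2-fold were Atp5k and Ndufa3 upwards and Cycs and Cox6b2 downwards in KI, and Cox6b2 alone in WT.

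The libraries differ in their mix of cells: clusters 3 and 4 held 1160 of the 2577 KI DN4 cells, 493 of the 1477 WT DN4 cells, 485 of the 3298 KI DN3 cells and 309 of the 2885 WT DN3 cells. Within clusters 3 and 4 the stage differences were smaller. The summed nuclear log2 ratio of DN4 over DN3 was 0.14 there in KI and 0.05 in WT, against 0.30 in KI and 0.20 in WT over whole libraries. The summed mitochondrially encoded ratio was -0.06 in KI and -0.04 in WT, against -0.45 in KI and -0.43 in WT over whole libraries. Among cells called G1 alone, the median of the nuclear genes was 0.01 in KI and -0.09 in WT. That of the mitochondrially encoded genes was -0.57 in KI and -0.51 in WT. Cells called G1 made up 91.1% of cluster 2 and 92.0% of cluster 5, mainly DN4, and 96.5% of clusters 0 and 1, mainly DN3. The G1 setting thus sets mainly different clusters against each other, rather than cells of one kind. More RNA per cell and more cells of a kind cannot be told apart over whole libraries.

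The comparison of KI with WT sets 1 library of each genotype against the other in each stage, so genotype and library cannot be told apart. Over whole libraries, nuclear respiratory chain genes were slightly higher in KI in both stages, by less than the difference between clusters. Their summed log2 ratio over whole libraries was 0.17 in DN4 and 0.07 in DN3. Within clusters of DN3 the summed ratio was at most 0.03, as given below. The median over genes, a different measure, was 0.11 in DN3 over whole libraries and 0.06 in clusters 0 and 1. In DN4, 65 of the 80 were higher in KI and 6 lower, beside 25.1% of all genes higher and 37.9% lower. Their median log2 ratio was 0.16, against -0.05 over all genes. In DN3, 50 were higher and 17 lower, beside 27.7% and 27.5% of all genes, with a median of 0.11 against 0.0029. At least 2-fold apart were 1 in DN4, Atp5k, beside 0.662% of all genes, and 2 in DN3, Cycs and Atp5k, beside 0.69%. The mitochondrially encoded genes had a median of 0.10 in DN4, with 8 higher and 3 lower, and 0.10 in DN3, with 8 higher and 5 lower. The DN4 median was 0.21 with scaling by trimmed means of M values (TMM) and 0.22 with DESeq2 size factors, and the DN3 median 0.17 among cells called G1 and 0.18 in clusters 0 and 1. No spread between mice is known for differences of this size.

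The mix of clusters given above also differed between the KI and WT libraries of a stage. Within a cluster, the summed nuclear log2 ratio of KI over WT was 0.16 in cluster 2, 0.11 in cluster 5 and 0.09 in clusters 3 and 4. In cluster 2 of DN4, 47 of 78 measured nuclear genes were higher and 0 lower, beside 12% and 17.8% of all genes. In DN3 the summed nuclear ratio was 0.03 in clusters 0 and 1. It was 0.0074 in cluster 6, with an interval from -0.0061 to 0.02, and 0.0042 in clusters 3 and 4, from -0.0032 to 0.01. In cluster 3 alone it was lower in KI, at -0.017, with an interval from -0.032 to -0.0031, and in cluster 4 alone it was 0.01. The mitochondrially encoded sum in DN4 went both ways, with ratios of 0.18 in cluster 2, -0.08 in cluster 5 and 0.05 in clusters 3 and 4. In DN3 it was higher in KI in clusters 0 and 1, by 0.14, in cluster 6, by 0.15, and in clusters 3 and 4, by 0.06, but it was -0.0078 in cluster 3 alone, with an interval from -0.03 to 0.01. With TMM scaling the median of all genes in DN4 moved to 0.07 and that of the nuclear genes to 0.27. Among others, Cox5b, Ndufs3, Uqcrh, Uqcrc2, Ndufa13, Atp5o.1, mt-Co1 and mt-Cytb, which lay just below 0 in DN4, were above it under TMM.

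All 4 genes of complex II itself were higher in KI in either stage. Sdhb was at 409 CPM in KI DN4 and 360 in WT DN4, and at 347 in KI DN3 and 287 in WT DN3. Sdhd was at 194 CPM in KI DN4 and 166 in WT DN4, and at 179 in KI DN3 and 155 in WT DN3. Among the genes furthest above 0 in KI in DN3 were Cox5a and Ndufb7, an accessory complex I subunit. Cox5a had log2 ratios of 0.28 in DN4 and 0.28 in DN3, and Ndufb7 of 0.27 in DN4 and 0.29 in DN3. Cox4i1, a regulatory subunit of complex IV, was at 1256 CPM in KI DN4 and 1058 in WT DN4, and at 1177 in KI DN3 and 969 in WT DN3. The assembly factors of complex II were at 28.9 to 38.6 CPM in KI DN4 for the 3 measured. Sdhaf4 had ratios of 0.45 in DN4 and 0.27 in DN3, and Sdhaf1 of 0.13, with an interval from -0.02 to 0.28, in DN4 and 0.36 in DN3. Sdhaf2 was lower in KI, with ratios of -0.14 in DN4 (95% interval -0.27 to -0.00094) and -0.19 in DN3 (-0.31 to -0.07).

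**Figure D4:**
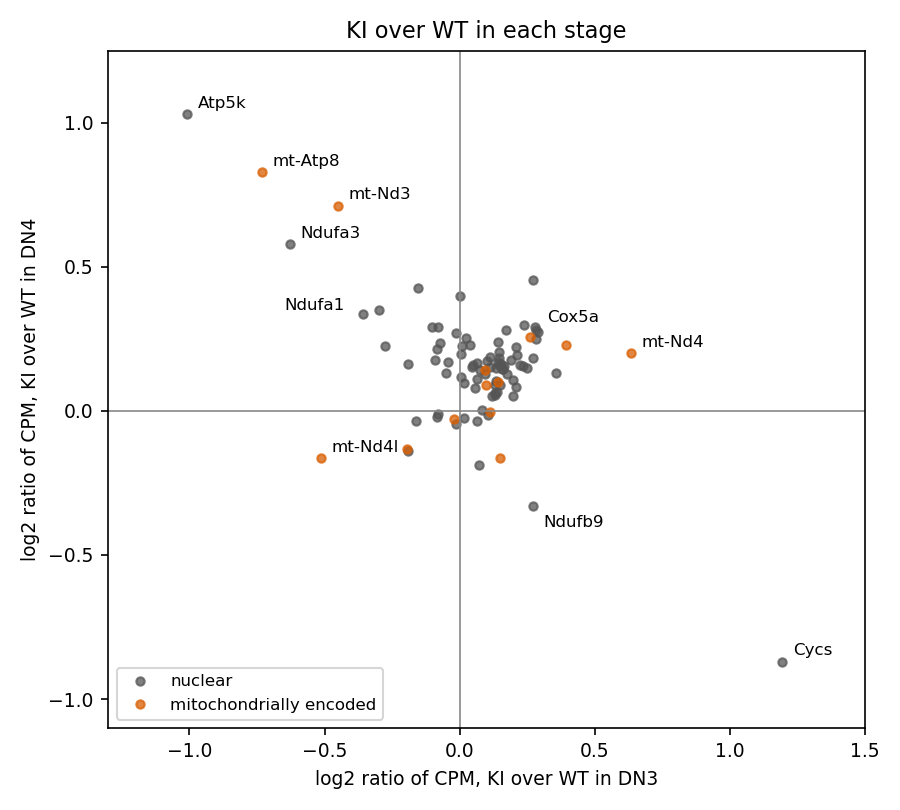
Log2 ratio of CPM, KI over WT, in DN4 (vertical) against DN3 (horizontal) for the 80 nuclear (grey) and 13 mitochondrially encoded (orange) genes. The nuclear medians are 0.16 in DN4 and 0.11 in DN3, while Atp5k, mt-Atp8, mt-Nd3 and Ndufa3 lie at the upper left and Cycs at the lower right.

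Of the 80 nuclear genes, 16, or 20%, differed between KI and WT in opposite directions in the 2 stages. Of the 5287 genes measured in both, 5.64% did so. Both shares rest on intervals off 0 and are not matched for level. Of the 16 nuclear genes, 13 were higher in KI in DN4 and lower in DN3, and 3, Cycs, Ndufb9 and Cox7a2l, went the other way. Of the 13 mitochondrially encoded genes 3 did so, with mt-Atp8 and mt-Nd3 higher in KI in DN4 and mt-Atp6 lower. The few furthest from 0 are given here. Atp5k, the e subunit of complex V, which joins ATP synthase dimers, was at 387 CPM in KI DN4, 190 in WT DN4, 81.5 in KI DN3 and 164 in WT DN3. Its log2 ratio of KI over WT was 1.03 in DN4 (95% interval 0.97 to 1.09) and -1.01 in DN3 (-1.09 to -0.93). The KI libraries held the highest and the lowest level, and the WT libraries lay between them. In DN4 the ratio of Atp5k was 1.09 within cluster 2, 0.69 within cluster 5 and 0.93 within clusters 3 and 4. In DN3 it was -0.996 within clusters 0 and 1, -1.13 within cluster 6 and -1.16 within clusters 3 and 4.

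Cycs, which encodes the somatic form of cytochrome c, went the opposite way. It stood at 22.7 CPM in KI DN4, 41.4 in WT DN4, 50.9 in KI DN3 and 22.2 in WT DN3. The KI over WT ratio was -0.87 in DN4 (95% interval -1.03 to -0.72) and 1.19 in DN3 (1.05 to 1.35). Within clusters 3 and 4 the ratio of Cycs was -1.04 in DN4 and 1.18 in DN3. Cycs has 4 near-identical copies elsewhere in the genome, and 1 of them, the pseudogene Gm10053, was counted in the matrix at 42.1, 65.7, 33.5 and 42.0 CPM in KI DN4, WT DN4, KI DN3 and WT DN3. With the copy added, the sum was 64.8 CPM in KI DN4, 107 in WT DN4, 84.4 in KI DN3 and 64.3 in WT DN3, which gives ratios of -0.73 in DN4 and 0.39 in DN3. Reads that fit both cannot be assigned, so the level of Cycs itself is uncertain. The Ndufb9 ratios, -0.33 in DN4 and 0.27 in DN3, had the same signs as those of Cycs.

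The windows around the start of transcription of these genes and of Cox6b2 are shown because their levels set the libraries or clusters furthest apart. Each runs from 250 bases before the start to 50 after it (RefSeq, GRCm38.p6), read 5′ to 3′ on the gene's strand. Capitals mark the binding motif of NRF1, a regulator of many respiratory chain genes (GCATGCGC), and the reverse complement CTTCCGG of the motif CCGGAAG of ETS factors, all searched on both strands. The windows lie at chr6:50566520-50566819 for Cycs, chr5:108434350-108434649 for Atp5k and chr7:4753045-4753344 for Cox6b2, all on the minus strand.
Cycs: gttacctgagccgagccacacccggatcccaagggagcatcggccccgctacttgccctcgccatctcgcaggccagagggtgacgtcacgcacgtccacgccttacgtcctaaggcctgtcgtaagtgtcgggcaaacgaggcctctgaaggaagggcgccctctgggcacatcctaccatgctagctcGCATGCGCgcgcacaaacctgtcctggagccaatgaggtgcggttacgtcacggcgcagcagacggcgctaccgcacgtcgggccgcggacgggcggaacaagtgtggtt
Atp5k: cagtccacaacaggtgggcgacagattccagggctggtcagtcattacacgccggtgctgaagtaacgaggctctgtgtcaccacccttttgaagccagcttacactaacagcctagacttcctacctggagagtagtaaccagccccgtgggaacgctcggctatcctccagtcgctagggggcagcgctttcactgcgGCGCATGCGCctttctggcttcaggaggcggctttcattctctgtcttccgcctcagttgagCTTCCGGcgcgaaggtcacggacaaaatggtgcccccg
Cox6b2: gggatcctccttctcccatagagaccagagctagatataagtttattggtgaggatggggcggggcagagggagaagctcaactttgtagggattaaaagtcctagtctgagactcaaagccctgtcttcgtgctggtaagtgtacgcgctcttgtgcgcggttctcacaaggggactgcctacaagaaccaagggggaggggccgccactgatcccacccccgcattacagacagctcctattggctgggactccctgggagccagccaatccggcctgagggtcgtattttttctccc
The NRF1 letters begin 60 bases before the start in Cycs. In Atp5k they occur on both strands in overlap, beginning 50 and 48 bases before the start, and neither NRF1 nor ETS letters occur in the Cox6b2 window. A window was at hand for 70 of the 85 nuclear genes. The NRF1 motif was in 15.7% of them and in 5.61% of 11191 genes with a window. The ETS motif was in 27.1% against 19.0%, the YY1 motif AAGATGGC in 12.9% against 5.004%, and TATAAA in 8.57% against 8.89%. These matches are letters in a window and were not tied to binding.

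Among the mitochondrially encoded genes, mt-Atp8, a small membrane subunit of complex V, had ratios of the same signs as Atp5k. It was at 328 CPM in KI DN4, 185 in WT DN4, 184 in KI DN3 and 305 in WT DN3, with KI over WT ratios of 0.83 in DN4 and -0.73 in DN3. mt-Nd3, a core membrane subunit of complex I, was at 230 CPM in KI DN4, 140 in WT DN4, 128 in KI DN3 and 175 in WT DN3. Both genes were highest in KI DN4. Within clusters 3 and 4 the mt-Atp8 ratio was 0.83 in DN4 and -0.75 in DN3. mt-Nd4, a large core subunit of complex I, was at 533 CPM in KI DN4, 463 in WT DN4, 1032 in KI DN3 and 664 in WT DN3. mt-Nd4l, though short at 297 nt, was lower in KI in both stages, with ratios of -0.16 in DN4 and -0.51 in DN3. mt-Nd5, the longest at 1824 nt, was at 350 CPM in KI DN4, 298 in WT DN4, 483 in KI DN3 and 368 in WT DN3, and so was higher in KI in both stages. mt-Co1 and mt-Cytb, also among the longer genes, had ratios nearer 0, at -0.030 for mt-Co1 and -0.0046 for mt-Cytb in DN4, and -0.022 and 0.11 in DN3.

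Transcript length moved with these ratios. Atp5k has a median transcript length of 321.5 nt in the annotation, the shortest of the measured nuclear genes. Ndufa3, an accessory subunit of complex I at 433 nt, was at 507 CPM in KI DN4, 340 in WT DN4, 228 in KI DN3 and 352 in WT DN3. Cox7c, a small subunit of complex IV at 540 nt, was at 1037 CPM in KI DN4, 813 in WT DN4, 636 in KI DN3 and 782 in WT DN3. Ndufa1, an accessory subunit of complex I, and Uqcr11, a small subunit of complex III, also had a positive ratio in DN4, 0.34 and 0.43, and a negative one in DN3, -0.36 and -0.15. Other short transcripts did not: Ndufa6, at 382 nt, had ratios of 0.17 in DN4 and 0.06 in DN3, and Ndufa4, at 460 nt, of 0.29 and 0.28. In DN3, 16 of the 27 shortest nuclear genes lay above 0 and 11 below. Over the 80 nuclear genes, Spearman's rho between transcript length and the KI over WT ratio was -0.55 in DN4 and 0.36 in DN3. Over all genes with a length it was -0.22 in DN4 and -0.12 in DN3. These rho values cover unlike ranges: all genes reach 123179 nt and the nuclear genes 3123 nt. The median ratio in DN4 was 0.22 for the 27 shortest nuclear genes, 0.16 for the 26 in the middle and 0.09 for the 27 longest. In DN3 it was 0.01, 0.12 and 0.15. Cut at the same lengths, all genes had medians of 0.15, 0.06 and -0.06 in DN4. In DN3 they had -0.02, 0.08 and -0.0065, with 4863 of 5669 genes in the longest range. For DN4 over DN3 rho was -0.56 in KI and -0.04 in WT. The points share their libraries, and genes are not independent replicates. The part of length in the ratios was not tested.

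**Figure D5:**
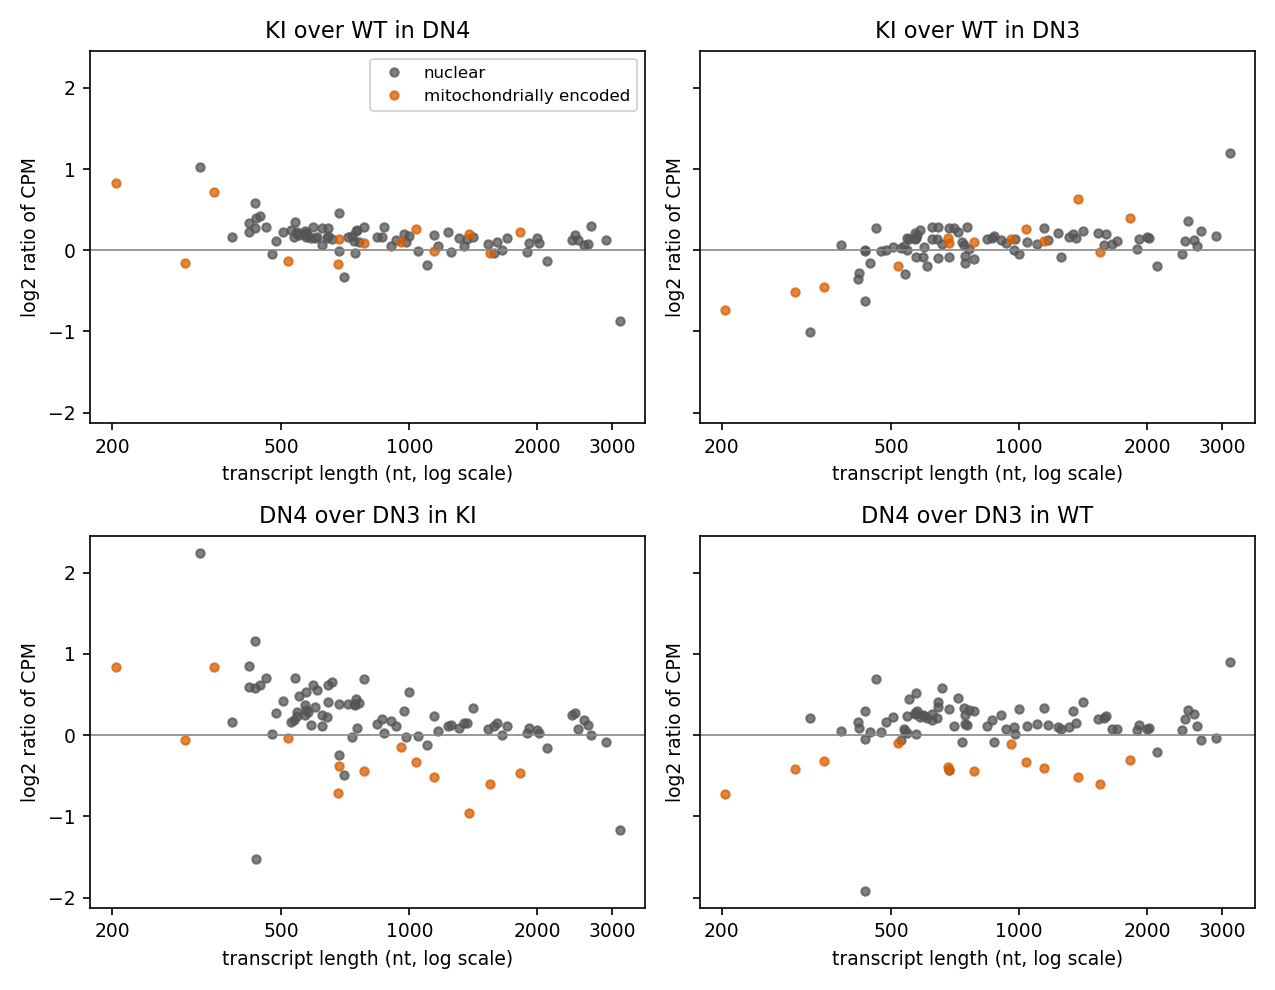
Log2 ratio of CPM against median annotated transcript length (nt, log scale) in the 4 comparisons, for the 80 nuclear (grey) and 13 mitochondrially encoded (orange) genes. Atp5k, the shortest nuclear transcript, lies highest in KI over WT in DN4 and lowest in KI over WT in DN3, with rho over the nuclear genes of -0.55 and 0.36.

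Genes of the mitochondrial genome that lie on a shared messenger RNA can be set against each other within a library. In mammals mt-Atp8 and mt-Atp6 are translated from a common messenger, and so are mt-Nd4l and mt-Nd4. On the mitochondrial chromosome of GRCm38 mt-Atp8 (7766 to 7969) overlaps mt-Atp6 (7927 to 8607) by 43 nt, and mt-Nd4l (9877 to 10173) overlaps mt-Nd4 (10167 to 11544) by 7 nt, all on the plus strand. For each mt-Atp8 UMI there were 8.04 of mt-Atp6 in KI DN4, 16.0 in WT DN4, 23.4 in KI DN3 and 12.7 in WT DN3. Within clusters 3 and 4 the values were 7.91, 15.7, 22.9 and 12.3 in the same libraries. For each mt-Nd4l UMI there were 0.420 of mt-Nd4 in KI DN4, 0.326 in WT DN4, 0.778 in KI DN3 and 0.351 in WT DN3. Within clusters 3 and 4 they were 0.401, 0.300, 0.725 and 0.292. The ratio of genes on a common messenger thus differed between libraries by more than counting error, also among cells of the same clusters. KI DN3 had the most UMIs of the downstream gene for each of the upstream gene in both pairs. A near-identical copy lies elsewhere in the genome for mt-Atp6, mt-Nd4l and mt-Nd4, but not for mt-Atp8. The part of the copies in these values was not tested.

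Of the isoforms known from other tissues, Cox6b2 was detected as given above, while 3 others stayed near 0. Cox4i2 was at no more than 0.792 CPM in any library, Cox6a2, known from heart and muscle, at no more than 5.92, and Cox7a1 at no more than 5.30. Cox8a was the Cox8 gene measured, at 1257 CPM in KI DN4, 1108 in WT DN4, 903 in KI DN3 and 817 in WT DN3. Of the 85 nuclear genes, 26 have a near-identical copy in the genome and their levels are uncertain to that extent. The same holds for the mitochondrially encoded genes except mt-Nd1, mt-Atp8, mt-Nd6 and mt-Cytb, though none of those copies is in the matrix. Besides Cycs, the genes of the matrix with near-identical sequence to Cox5b, Atp5l, Ndufb9 and Sdhaf2 were each under 4 CPM, and Donson, which shares sequence with Atp5o.1, was at 21.1 CPM in KI DN4, 22.3 in WT DN4, 11.7 in KI DN3 and 12.8 in WT DN3.

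Other genes of the mitochondrion were counted in the same way, to be read beside the shares of all genes: 25.1% higher and 37.9% lower in KI in DN4, and 27.7% and 27.5% in DN3. Of 77 measured mitochondrial ribosomal protein genes, which translate the mitochondrially encoded subunits, 52 were higher and 2 lower in KI DN4 than in WT DN4, and 46 higher and 4 lower in KI DN3 than in WT DN3. Their median log2 ratios were 0.14 and 0.11. In clusters 3 and 4 against clusters 0 and 1, 70 of the 77 were higher and 2 lower, beside 37.2% and 55.4% of all genes. Of 24 genes of protein import, 14 were higher and 4 lower in KI in DN4, and 15 and 2 in DN3. Timm23, a channel of the inner membrane, was lower in KI in both stages, at -0.72 in DN4 and -0.71 in DN3. Of 18 genes of the tricarboxylic acid cycle, 6 were higher and 2 lower in KI in DN4, and 10 and 3 in DN3, so that the share higher was 33.3% in DN4 and 55.6% in DN3. Across stages Idh2, the NADP-dependent isocitrate dehydrogenase, was lower in DN4, at -0.75 in KI and -0.91 in WT.

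Glycolytic genes went both ways. Of 13 measured in DN4, 7 were higher in KI and 4 lower, or 53.8% and 30.8%, beside the 25.1% and 37.9% of all genes, and Gapdh and Eno1 were lower, at -0.64 and -0.56 in DN4 and -0.28 and -0.38 in DN3. Across stages Pfkp, a phosphofructokinase isoform, was higher in DN4, at 1.08 in KI and 1.32 in WT, and Ldhb was lower, at -0.64 in KI and -0.65 in WT. Of the genes that maintain and express the mitochondrial genome 7 were measured, and 3 were higher and 1 lower in KI in DN4, and 2 and 2 in DN3. Tfam, which packages and transcribes mitochondrial DNA, was higher in DN4 than in DN3, by 0.16 in KI and 0.17 in WT. Of regulators of mitochondrial biogenesis 2 of 8 were higher and 2 lower in KI in DN4, and 0 of 7 passed in either direction in DN3. The share of this list higher in DN4 was near the 25.1% of all genes. Complex I assembly factors, 12 measured, had 5 higher and 0 lower in KI in DN4 and 4 higher and 1 lower in DN3. Those of complexes II to V, 26 measured, had 12 higher and 2 lower in KI in DN4, and 9 higher and 5 lower in DN3. Carriers and antioxidant enzymes, 11 measured, had 8 higher and 2 lower in DN4 and 7 higher and 0 lower in DN3. Of genes of cytochrome c release, 1 of 7 was higher and 2 lower in KI in DN4, and 3 of 6 higher and 0 lower in DN3. Cytoplasmic ribosomal protein genes, 79 measured, had 50 higher and 22 lower in DN4 and 44 higher and 29 lower in DN3. Some genes of these lists had KI over WT ratios of opposite signs in the 2 stages, as Atp5k and Cycs did. Rps29 was at 0.94 in DN4 and -1.07 in DN3, and Rpl21 at -0.98 in DN4 and 1.03 in DN3. The Tomm7 ratios were 0.45 in DN4 and -0.48 in DN3, and those of Pet100 0.55 and -0.48. Others, such as Timm23, Gapdh and Eno1, kept their sign.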

How the data were processed

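The authors deposited raw UMI counts, 15653 genes by 10237 cells, with each cell's library, cluster and phase. How cells were filtered, clustered and phased is not stated. The highest mitochondrially encoded share of a single cell was 7.43% in KI DN4, 7.19% in WT DN4, 7.42% in KI DN3 and 7.48% in WT DN3. Cell Ranger 3.1.0 and 6.0.1 and mm10 are named, per the submitters' processing notes; which version made which library's counts is not given in the sources used here, and what it does to the ratios was not tested. The 4 receptor libraries were not used here. UMIs were summed per library or cluster and scaled to CPM (Python 3.11.15, pandas 2.3.3). A ratio needed 20 CPM in either library, and its 95% interval is the exact conditional binomial one (scipy 1.17.1), checked on simulated data. Clusters entered within a library at 50 cells or more. No cell was removed and doublets were not called. Lengths and positions came from GENCODE vM21 (GRCm38), by symbol, for 97 of 98 genes; Atp5o.1 was given the length listed for Atp5o and no position. Copies were BLAST 2.17.0 hits of 95% identity over 150 nt. TMM (edgeR 4.0.16) and DESeq2 1.42.0 gave scaling alternatives only; an additive model over the 4 libraries was not fitted. The genes, lists, comparisons and alternatives were chosen with earlier results of these data known. Genes were named if 2-fold apart, among the 4 highest or lowest of a comparison, mitochondrially encoded, of complex II, isoforms, or extreme across clusters. Some values of single genes are not reported here.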

Additional observations from a re-analysis of the deposited data

Results flagged for a closer look

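Among the respiratory chain genes, Atp5k, Cycs and mt-Atp8 lay on opposite sides of 0 in the same comparison made in different stages or genotypes. They did so by at least 1.5-fold each way. With 1 library per group the difference was not tested. Rps29 and Rpl21, outside the chain, did so too, as given above. The KI over WT log2 ratio of Atp5k was 1.03 in DN4 and -1.01 in DN3. That of Cycs was -0.87 in DN4 and 1.19 in DN3. That of mt-Atp8 was 0.83 in DN4 and -0.73 in DN3. For DN4 over DN3, Cycs was at -1.17 in KI and 0.90 in WT, and mt-Atp8 at 0.84 in KI and -0.72 in WT. These comparisons share libraries, so the stage and genotype contrasts are not separate evidence.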

How the results depend on the processing

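No paired analysis was possible because groups of 1 library share fewer than 2 replicate numbers; a fit of genotype and stage without their interaction over the 4 libraries was not made. Of the results tried under other settings, 99 stayed within their spread or counting limits and 37 moved. The cause was not tested. For the nuclear median of DN4 over DN3, cells called G1 alone, mainly of different clusters in DN4 and DN3, gave 0.012 in KI and -0.092 in WT. Clusters 3 and 4 alone gave 0.076 in KI and 0.044 in WT, and leaving out clusters 2, 5 and 7 gave 0.34 and 0.37. DESeq2 size factors gave 0.32 and TMM 0.31 in KI, and the mean over cells 0.068 in WT. In clusters 3 and 4 the mitochondrially encoded median was -0.053 in KI, against -0.38 in the main setting, and -0.081 in WT, against -0.40. The KI value was still counted among the 99 that stayed, so a result that stayed can have changed by much. For the nuclear median of KI over WT in DN4, TMM gave 0.27, DESeq2 0.27, the mean over cells 0.22, the total without mitochondrially encoded and ribosomal protein genes 0.19, leaving out clusters 2, 5 and 7 0.073, and clusters 3 and 4 alone 0.065. Restricting to nuclear transcripts of 600 nt or more, chosen after seeing the data, gave 0.13 in DN4 over DN3 in KI and 0.13 in KI over WT in DN4.

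The counts of nuclear genes 2-fold apart rest on few genes. In KI over WT in DN3 the count of 2 was 1 under TMM, DESeq2, the mean over cells, long transcripts alone and without the cells above the 98th percentile of UMIs. It was 0 in G1 cells, in clusters 0 and 1, and without genes that have a near-identical copy, also chosen after seeing the data. In KI over WT in DN4 the count of 1 was 0 in G1 cells, among long transcripts and without copies. In DN4 over DN3 in KI the count of 4 was 2 in G1 cells and without copies, and 1 among long transcripts. In WT the count of 1 was 2 without clusters 2, 5 and 7 and at a minimum of 5 CPM, 3 with no minimum, and 0 in clusters 3 and 4 and among long transcripts. Intervals cover counting error only, and PCR and sampling of mice add error that 1 library cannot show.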
